A study of Mus musculus with 6 samples.

Results

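The cytosolic ribosomal proteins were followed in sorted regulatory T cells (Tregs) of mouse bone marrow, as 84 of the 15483 genes in the deposited tables. They were taken by symbol: names made of Rpl or Rps and a number with at most a short suffix, Rplp0, Rplp1, Rplp2 and Rpsa, without the Rps6k kinases and without symbols holding -ps. That gave 52 genes of the large subunit and 32 of the small subunit, and 7 of them are paralogues whose names end in l, with or without a digit. The data were RNA-seq libraries of wild-type mice, 3 from untreated controls and 3 from animals irradiated 3 months earlier, a setting the series title links with premature ageing. The sort took bone marrow cells that were CD3+, CD4+, NK1.1- and Foxp3+. The labels give no strain, age or radiation dose. Nothing says that replicates came from separate animals, so each p-value reflects only how far these libraries varied, and that variation may be technical. Values were read as FPKM, which divide fragments by transcript length and library size. On that reading levels are set side by side between genes, apart from reads shared with similar copies.

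A ribosome is built from a small subunit, which reads the mRNA, and a large subunit, which joins amino acids and releases the growing chain through an exit tunnel. Each ribosomal protein is in most cases needed in a single copy per ribosome, so cells make them in balanced amounts. Many of their mRNAs begin with a C followed by a run of pyrimidines, the 5′ terminal oligopyrimidine or TOP motif, through which the mTOR pathway controls their translation. Resting T cells are known to hold such mRNAs and to translate them more when activated.

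All 84 genes were above 0 in all 6 libraries, and 82 had a mean of at least 1 FPKM and were tested (50 large, 32 small). The 2 left out were the paralogues Rpl39l and Rpl3l. In GENCODE M21 on GRCm38, 82 of the 84 are protein coding and 2, Rpl6l and Rpl32l, are annotated as processed pseudogenes. Mouse ribosomal protein genes have many processed copies: 60 members have at least 1 entry named -ps in that annotation, up to 24 for Rpl31 and for Rps12, and how reads shared with these copies were divided is not stated by the labels, so each level is uncertain by that amount. The 59 full-name genes with such entries had a median log2 change of -0.10 and the 18 without had -0.10.

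The libraries carry the labelled cell type together with much else. Foxp3, the factor that defines Tregs, had a mean of 22.6 ± 1.93 FPKM among controls against 12.6 ± 0.795 FPKM after irradiation (SD, n = 3 each), while S100a8, a granulocyte gene, had 25283 ± 1249 against 39026 ± 427 FPKM. Of the marker lists, 13 of 17 T cell core genes, 5 of 6 Treg genes and 11 of 11 B lineage genes were lower in irradiated libraries by limma. So were 6 of 10 erythroid, 10 of 10 macrophage and 7 of 8 plasmacytoid dendritic genes, beside 10.3% of all tested genes. Higher were 12 of 15 granulocyte and 4 of 19 cell division genes, beside 6.29% of all tested genes. Summed granulocyte markers ranged from 69618 to 74824 FPKM in controls and from 101706 to 104706 FPKM in irradiated libraries, and summed T cell core genes from 630 to 649 and from 405 to 419 FPKM. None of the T cell, Treg or granulocyte markers was at 0 in any library. These mixtures differ between the groups and their part in the ribosomal protein results was not tested. In bulk samples, fewer cells of a type and less RNA per cell cannot be told apart. Column totals lay between 451444 and 485365 FPKM, and absolute depth is unknown. Relative to control replicate 1 the depth was estimated at 98.5% and 103% in the other controls and 81.6% to 92.7% in irradiated libraries. The estimate rests on the steps of values below 0.1 FPKM, and only part of those genes matched it. For control replicate 3 they were 209 of 341, and for irradiated replicate 2 128 of 225.

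Control replicate 3 stood apart for the ribosomal proteins. The 84 genes summed to 63928, 62756 and 55828 FPKM in control replicates 1, 2 and 3, and to 56573, 56350 and 57431 FPKM in irradiated replicates 1, 2 and 3. Control replicate 3 was the lowest of all 6 libraries, while the other 2 controls were the highest, so the groups overlapped. As a share of all summed FPKM, not weighted by length, the genes held 13.6%, 13.4% and 12.4% in controls and 11.8%, 11.7% and 11.8% in irradiated libraries, and on this share the groups did not overlap. The total under this share also holds the granulocyte genes. Their sum was at most 74824 FPKM in controls and at least 101706 FPKM in irradiated libraries, so the share depends on them too. The mean share was 13.1% ± 0.661 in control and 11.8% ± 0.0803 in irradiated libraries (SD, n = 3 each).

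In that library the members were low together. Of the 82 tested members, 81 were lower in control replicate 3 than in both other controls, against 30.7% of all 10666 tested genes, and the exception was Rpl22l1. The median difference of control replicate 3 from the mean of the other controls was -0.18 on log2(FPKM + 1) for the members and 0.03 for all other tested genes. Among 551 other genes of at least 100 FPKM, 63.5% were lower in control replicate 3, with a median of -0.06, and among the 118 of these with at most 1500 exonic bases 70.3% were, with a median of -0.09. Other abundant genes thus shared the direction, by a smaller median difference than the members. The T cell core sum of control replicate 3 was 637 FPKM, between the 649 and 630 FPKM of the other controls. Its granulocyte sum was the lowest at 69618 FPKM, and its estimated relative depth was the highest at 103%. Whether any of these bears on the low ribosomal protein level was not tested. Within groups, the members' median SD on the log2 scale was 0.11 among controls and 0.033 among irradiated libraries.

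**Figure D1:**
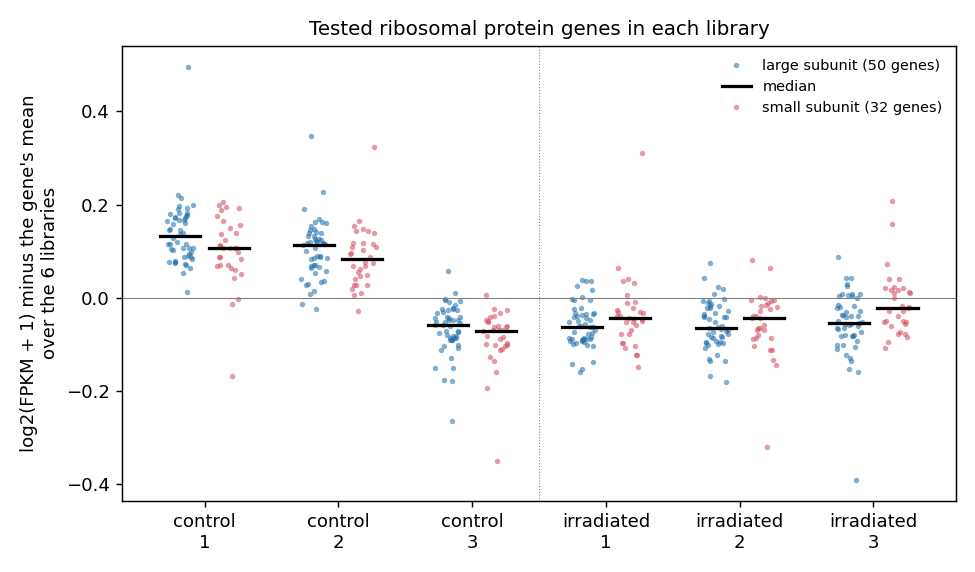
Each point is a tested ribosomal protein gene in 1 library, as log2(FPKM + 1) minus the gene's mean over the 6 libraries, with large subunit genes (50) in blue, small subunit genes (32) in red and black bars for medians. Control replicates 1 and 2 sit above 0, with medians of 0.115 and 0.099 over both subunits, while control replicate 3 at -0.069 lies beside the irradiated libraries at -0.052, -0.059 and -0.040.

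Irradiated and control libraries were then compared on the values as deposited. Of the 82 tested genes 9 were lower and 0 higher by limma (adjusted p under 0.05), which is 10.98% lower beside 10.3% of all tested genes, and 0 higher beside 6.29%. A share this near the background is not a result about the family. At an unadjusted p under 0.05, 30 members were lower and 1 higher, beside 17.5% and 12.1% of all tested genes. In all, 73 had a negative and 9 a positive change, with a median of -0.10 beside -0.02 for all tested genes, and the direction turned when libraries were scaled to the T cell core genes (median 0.42 beside 0.45 for all genes), a scale on which 81 members and 72.8% of all tested genes were higher. The 3 irradiated values lay below all 3 controls for 16 members and above them for 1, Rps25, beside 20.1% and 13.5% of all tested genes.

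Without control replicate 3 the picture differed: 54 of the 82 members were lower and 0 higher, which is 65.9%, beside 9.1% lower and 6.43% higher over all genes. The 54 held all 9 of the first count, and the significant changes ran from -0.10 to -0.61 on the log2 scale, that last value being the low paralogue Rpl32l. Against control replicates 1 and 2 only, 70 members had all 3 irradiated values below both controls, beside 24.9% of all tested genes. Leaving out control replicate 1 or 2, or irradiated replicate 1 or 2, left 0 members lower, and leaving out irradiated replicate 3 left 2. In these fits 6.65% to 8.78% of all tested genes were lower. With all 6 libraries, the 9 calls were also lost with median-of-ratios scaling, with no trend in limma and with no filter on low values (0 lower each), where the adjusted p moved more than the change: Rpl13a stayed at -0.22 with no trend and with no filter, and was at -0.19 with median-of-ratios scaling. Of all tested genes, 8.8% were lower with median-of-ratios scaling, 8.67% with no trend and 5.88% with no filter. By contrast, quantile normalization gave 24 lower and 3 higher members, beside 969 lower and 836 higher of all 10666 tested genes. The median of irradiated libraries minus control replicate 3 alone was 0.01, and minus the mean of controls 1 and 2 it was -0.16. On the values as deposited the family's fall therefore rests on control replicates 1 and 2, and control replicate 3 did not show it. As a share of all summed FPKM, control replicate 3 at 12.4% did lie above the irradiated libraries, at 11.8%, 11.7% and 11.8%. That total includes the granulocyte genes, at 69618 FPKM in control replicate 3 and 101706 to 104706 FPKM in irradiated libraries. A share without them was not tested, so this order does not show on which side control replicate 3 lies.

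**Figure D2:**
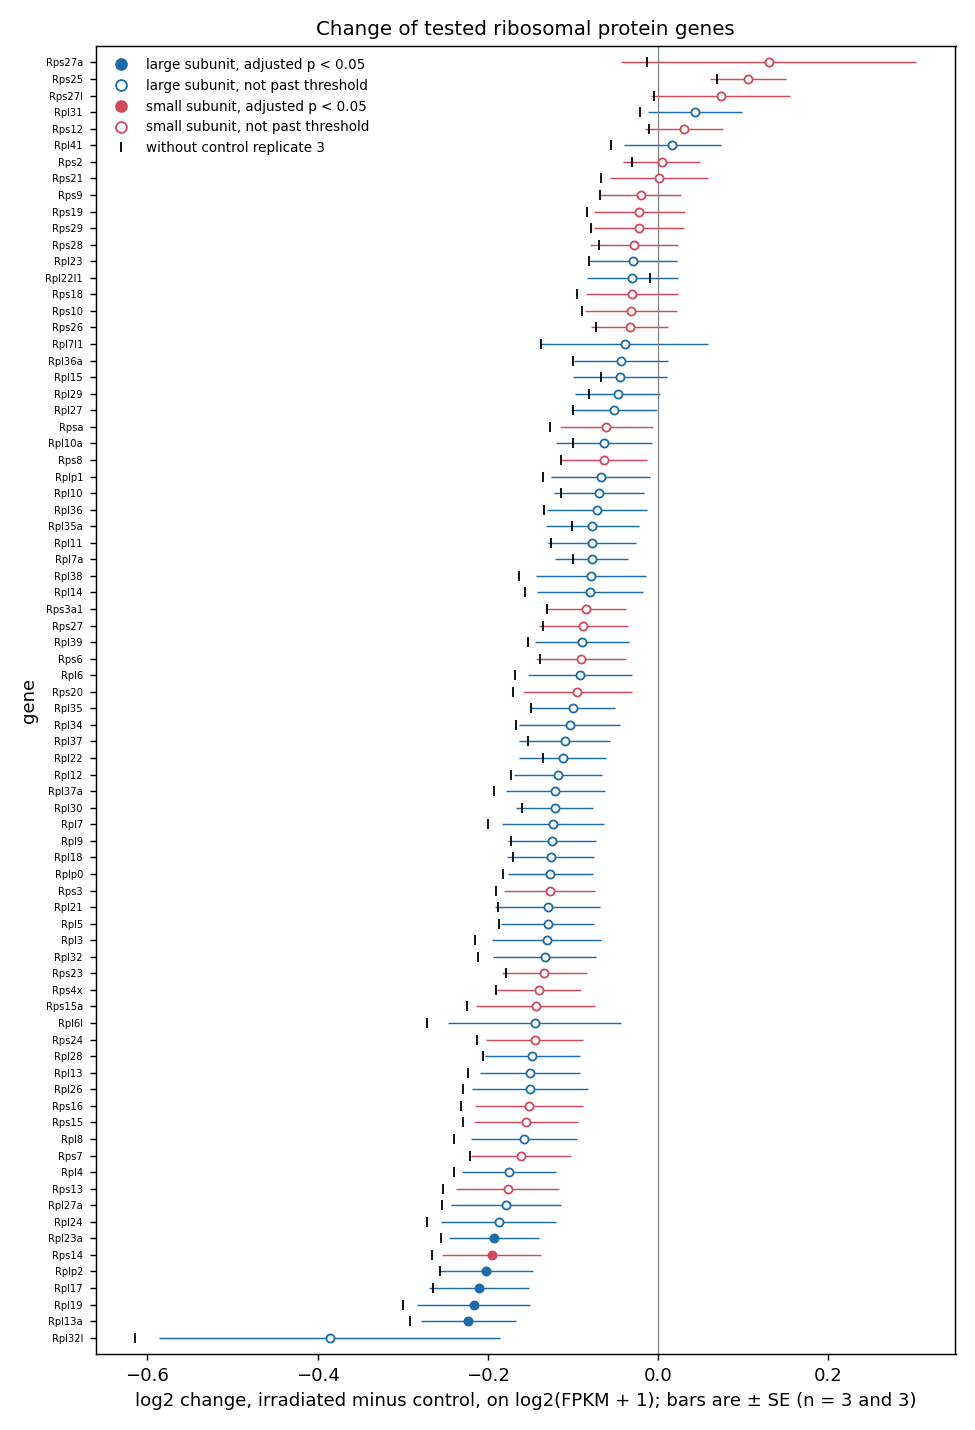
The log2 change of 78 of the 82 tested genes, irradiated minus control on log2(FPKM + 1), with bars for the SE (3 libraries per group), filled points for adjusted p under 0.05 by limma, and a black tick for the value without control replicate 3. On these values as deposited 6 points are filled, all left of 0. The rest of the 9 lower members are among the genes not plotted. Most ticks lie further left than their points. On the scale of T cell core genes, which moved most genes upward, 81 of 82 members and 72.8% of all tested genes were higher.

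The 9 genes that were lower with all 6 libraries came from both subunits, 6 from the large and 3 from the small. Rpl13a, a large subunit protein also known for a part in silencing inflammatory mRNAs (chr7:45125558-45128761, GRCm38), stood at 1584, 1547 and 1357 FPKM in controls and at 1287, 1292 and 1258 FPKM in irradiated libraries. All controls were above all irradiated libraries, with control replicate 3 the nearest. It fell by 14.5% in mean FPKM, a log2 change of -0.22 ± 0.06 (SE, limma adjusted p = 0.0194).

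Of the other large subunit genes that passed, 3 lie around the exit tunnel. Rpl19 helps to bridge the 2 subunits (chr11:98026710-98030492), with 331, 321 and 274 FPKM against 259, 266 and 270 FPKM. Rpl17, a protein of the exit tunnel (chr18:74998558-75003381), had 441, 421 and 385 FPKM against 345, 351 and 381 FPKM. Rpl23a, which docks the signal recognition particle at the tunnel exit (chr11:78180932-78183584), had 934, 919 and 814 FPKM against 775, 775 and 778 FPKM, the tightest irradiated group of these genes. None of these 3 overlapped between groups, but for Rpl19 and Rpl17 control replicate 3 came close to the highest irradiated library. Their log2 changes were between -0.19 and -0.22, with limma adjusted p from 0.0296 (Rpl23a) to 0.0459 (Rpl19).

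The stalk proteins Rplp0, Rplp1 and Rplp2 recruit the factors that drive each step of elongation. Rplp2 (chr7:141447370-141451585) had 1426, 1301 and 1216 FPKM in controls and 1148, 1134 and 1140 FPKM in irradiated libraries, a log2 change of -0.20 ± 0.05 (limma adjusted p = 0.0275). Its groups did not overlap. Rplp0, the base of the stalk, had 1213, 1219 and 1083 FPKM against 1088, 1057 and 1071 FPKM and did not pass (-0.13, limma adjusted p = 0.116). Rplp1, the most abundant member, had 1921, 2026 and 1714 FPKM against 1743, 1810 and 1837 FPKM and did not pass (-0.07, limma adjusted p = 0.486). For Rplp0 and Rplp1 control replicate 3 lay among or below the irradiated libraries. Without that library all 3 stalk genes were lower.

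In the small subunit, Rps14, the gene whose loss marks human 5q- syndrome (chr18:60747098-60778546), had 1603, 1550 and 1362 FPKM against 1337, 1268 and 1329 FPKM, with a log2 change of -0.20 ± 0.06 (limma adjusted p = 0.0417). Its groups were separate, again with control replicate 3 closest to the irradiated values.

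Grouped by place in the ribosome, with all libraries 3 of 8 proteins around the peptide exit (median -0.13), 1 of 3 stalk proteins (-0.13), 1 of 14 proteins of the small subunit head (-0.03) and 2 of 17 other small subunit proteins (-0.09) were lower, beside 10.3% of all tested genes. Without control replicate 3 these counts were 6 of 8, 3 of 3, 6 of 14 and 13 of 17, beside 9.1% of all tested genes and 65.9% of the members, and the differences between places were not tested. Rpl5 and Rpl11, which bind 5S rRNA and, when free of the ribosome, the p53 inhibitor Mdm2, both did not pass: Rpl5 had a log2 change of -0.13 (limma adjusted p = 0.141) and Rpl11 one of -0.08 (limma adjusted p = 0.353). Both passed without control replicate 3, at -0.19 and -0.13.

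Of 15 genes mutated in Diamond-Blackfan anaemia, an inherited failure of red cell formation, 0 were lower and 0 higher. Over all tested genes 10.3% were lower and 6.29% higher. At an unadjusted p under 0.05 the count lower was 4, beside 17.5% of all tested genes, and the median change was -0.05. Without control replicate 3, 6 of the 15 were lower, beside 9.1%. Rps19, the gene most often mutated in that disease, had 656, 642 and 571 FPKM in controls and 605, 612 and 621 FPKM in irradiated libraries. Control replicate 3 was its lowest library, so the groups overlapped (log2 change -0.02, limma adjusted p = 0.835).

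Several other well-known members did not pass with all 6 libraries. Rps6, the substrate of the S6 kinases, averaged 508 ± 29.8 FPKM among controls and 477 ± 21.1 FPKM after irradiation (log2 change -0.09). Rps3, at the mRNA entry, had 711 ± 53.0 and 649 ± 2.41 FPKM (-0.13). Rpsa, also called the laminin receptor, had 800 ± 62.2 and 765 ± 4.88 FPKM (-0.06). Rpl10, which joins the large subunit late in its assembly, had 598 ± 42.7 and 569 ± 9.47 FPKM (-0.07), and Rpl38, needed for translation of a set of Hox mRNAs, had 547 ± 55.8 and 516 ± 4.27 FPKM (-0.08). Of these 5, all but Rpl10 were lower without control replicate 3.

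Rps27a did not follow the family. It encodes a fusion of ubiquitin with a small subunit protein, and had 544, 766 and 479 FPKM in controls and 758, 489 and 706 FPKM in irradiated libraries. Its libraries were spread widely in both groups, with the largest within-group SD of all members (0.34 on the log2 scale), and its groups overlapped in full (log2 change 0.13 ± 0.17, limma adjusted p = 0.672).

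The large and small subunit genes were compared without the paralogues, 46 against 31. By mean FPKM over the 6 libraries the large subunit genes had a median level of 536 FPKM, from Rpl22 at 113 to Rplp1 at 1842 FPKM, and the small subunit genes one of 790 FPKM, from Rps15a at 86.9 to Rps9 at 1613 FPKM. Levels thus varied far more among the members of a subunit than between the groups. With paralogues included, 6 of 50 large (12%) and 3 of 32 small subunit genes (9.38%) were lower, beside 10.3% of all tested genes. Their median changes were -0.12 and -0.07. Without control replicate 3 the counts were 35 of 50 (70%) and 19 of 32 (59.4%), beside 9.1% of all tested genes. The difference in counts between the subunits was not tested.

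The balance of the subunits moved a little in irradiated libraries. The mean log2 level of large minus small subunit genes was -0.385, -0.403 and -0.390 in control and -0.435, -0.413 and -0.450 in irradiated libraries. Here control replicate 3 lay with the other controls and the groups did not overlap, with means of -0.393 ± 0.0093 and -0.433 ± 0.0186 (SD, n = 3 each). Without the erratic Rps27a the values were -0.404, -0.405 and -0.409 against -0.433, -0.432 and -0.453, still apart. The ratio of the summed FPKM of the same genes, large over small, was 1.199, 1.197 and 1.186 in controls and 1.155, 1.171 and 1.143 in irradiated libraries. With medians in place of means the groups overlapped, at -0.560, -0.545 and -0.601 against -0.616, -0.571 and -0.526, so the shift depended on how the genes were averaged.

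**Figure D3:**
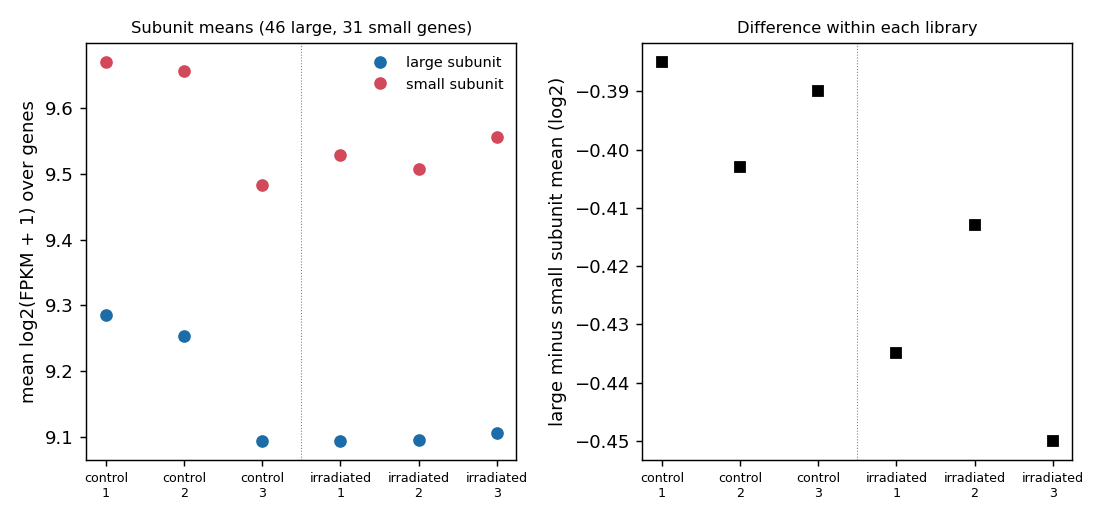
Left, the mean log2(FPKM + 1) of 46 large (blue) and 31 small (red) subunit genes in each library, and right, their difference, both without paralogues ending in l. Control replicate 3 drops with both subunits on the left but stays with the controls on the right, where controls lie between -0.385 and -0.403 and irradiated libraries between -0.413 and -0.450.

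To see which members departed from the rest, each library was scaled to the mean log2 level of the tested members, an analysis chosen after the data were seen. It removes the family's common shift. On that scale limma called 4 members lower and 5 higher, beside 5.77% lower and 7.91% higher of all tested genes, so the number called was near the background in both directions. Rps25, a head protein needed for initiation at several internal ribosome entry sites (chr9:44407139-44410427), had the largest relative rise among those called, and Rps27a, at 0.23, did not pass (limma adjusted p = 0.296). The FPKM values of Rps25 were 758, 743 and 695 in controls and 780, 803 and 780 in irradiated libraries. Rps25 was the sole tested member whose irradiated values all exceeded the controls as deposited (log2 change 0.11, limma adjusted p = 0.136). Relative to the family its change was 0.20 ± 0.04 (limma adjusted p = 0.0014).

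Other relative rises were Rpl31 at 0.14 (limma adjusted p = 0.027), a protein of the exit rim, Rps12 at 0.13 (0.0354), a head protein, and Rpl41 at 0.11 (0.0107), a very short protein lying between the subunits. As deposited, Rpl31 had 554, 546 and 481 FPKM against 532, 550 and 545 FPKM, and Rps12 had 683, 668 and 620 FPKM against 678, 661 and 673 FPKM. Both overlapped between groups on that scale and separated after the common shift was taken out. Rpl31 and Rps12 are the members with 24 entries named -ps each, and reads from such copies cannot be told from theirs here. Relative falls were those of Rpl13a at -0.13 (limma adjusted p = 0.0088), Rplp2 at -0.10 (0.0484) and Rps14 at -0.10 (0.0404), which are also among the 9 lower members.

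**Figure D4:**
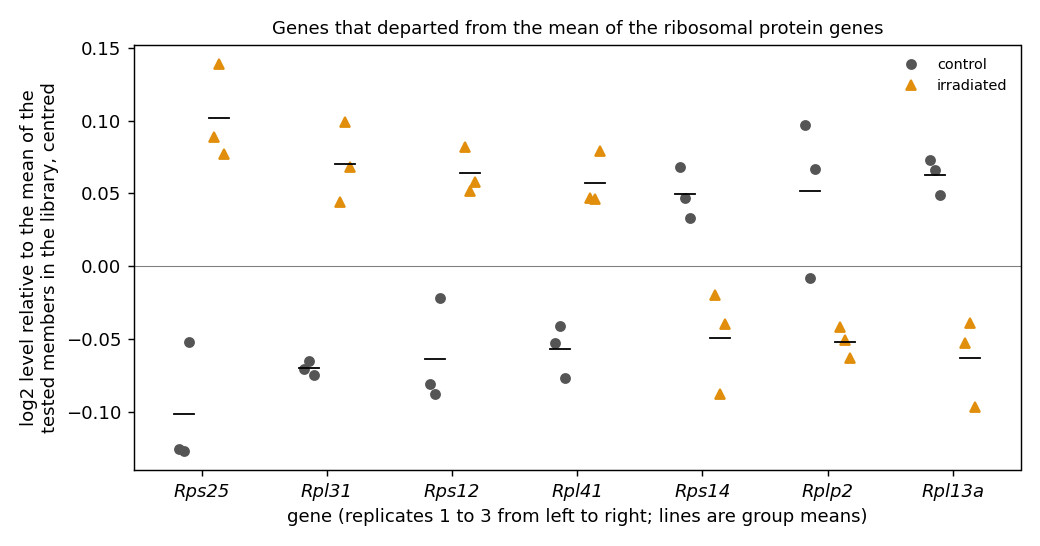
For 7 of the genes that departed from the family, the log2 level relative to the mean of the tested members in the same library, centred on each gene's mean, with grey circles for controls, orange triangles for irradiated libraries and lines for group means. The genes were picked by this same contrast, so their separation is a description: irradiated libraries lie above controls for Rps25, Rpl31, Rps12 and Rpl41 and below them for Rps14, Rplp2 and Rpl13a.

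The first bases of some members are shown because the TOP motif at the 5′ end of the mRNA is what ties this family to mTOR. RefSeq start sites on GRCm38.p6 were matched for 63 of the 84 members. Each window below holds 15 bases before and 15 bases from an annotated start, 5′ to 3′ on the gene's strand, and the capitals mark a run of C and T that opens with C at the start itself. The first 4 hold such a run, and the last 3, picked because the results name them, hold none at this start.
Rplp2: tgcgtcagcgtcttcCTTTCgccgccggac
Rpl38: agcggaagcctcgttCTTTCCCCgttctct
Rps6: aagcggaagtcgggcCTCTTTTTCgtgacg
Rps27: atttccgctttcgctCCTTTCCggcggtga
Rpl13a: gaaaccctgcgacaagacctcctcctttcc
Rps25: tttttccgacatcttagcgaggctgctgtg
Rps27l: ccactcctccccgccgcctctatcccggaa
The windows are chr7:141447636-141447665 on the plus strand for Rplp2, chr11:114668565-114668594 on the plus strand for Rpl38, chr4:86857353-86857382 on the minus strand for Rps6 and chr3:90213634-90213663 on the minus strand for Rps27. Those without a run are chr7:45128731-45128760 on the minus strand for Rpl13a, chr9:44407699-44407728 on the plus strand for Rps25 and chr9:66946071-66946100 on the plus strand for Rps27l.

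A C followed by 4 bases that are each C or T, read on the gene's strand from an annotated start, was found in 14 of the 63 members, 22.2%, and in 3.01% of the 27025 RefSeq genes in that table. Allowing the same run to open anywhere from 10 bases before to 20 bases after the start gave 66.7% of members and 39.6% of all genes. In Rpl13a the window above shows such a run a few bases past the annotated start. Over the 300 bases around the start and on both strands, CCGGAAG, a core bound by ETS factors, was in 41.3% of members and 9.93% of all genes, and AAGATGGC, a YY1 core, in 9.52% and 3.19%; the 2 motifs can share the letters AAG. Tested members with the run at the start had a median log2 change of -0.08, and those without had one of -0.10. A match is a description of these letters, not of binding.

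The 7 paralogues ending in l were far below their partners in level, with a single exception. Rpl22l1, which can take the place of Rpl22 and is known from T cell development, had 157, 153 and 162 FPKM in controls and 148, 164 and 150 FPKM in irradiated libraries, a mean that is 138% of that of Rpl22. Rpl22, the small RNA-binding protein of the large subunit whose loss impairs alpha-beta T cells, had 122, 117 and 114 FPKM against 106, 108 and 112 FPKM. Control replicate 3 was the highest control for Rpl22l1 and the lowest for Rpl22, and neither gene passed (log2 change -0.03 and -0.11, limma adjusted p = 0.76 and 0.171).

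Rps27l, a paralogue of Rps27 that p53 induces, had 32.0, 30.96 and 26.6 FPKM in controls and 32.0, 32.0 and 30.2 FPKM in irradiated libraries. Its groups overlapped, with control replicate 3 the lowest library (log2 change 0.07, limma adjusted p = 0.60), and its mean was 2.59% of that of Rps27. Rpl7l1, a nucleolar relative of Rpl7 that works in ribosome assembly, had 48.3, 45.1 and 37.8 FPKM against 44.0, 37.7 and 45.6 FPKM, at 4.78% of Rpl7, also with overlap. The annotated pseudogene Rpl6l had 53.6, 55.8 and 41.8 FPKM against 48.8, 44.5 and 42.4 FPKM, at 10.04% of Rpl6, and Rpl32l had 4.39, 3.86 and 2.18 FPKM against 2.43, 2.74 and 1.91 FPKM, at 0.226% of Rpl32. Both followed control replicate 3 downward like their partners. As near copies of Rpl6 and Rpl32, their values may hold reads of those genes.

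Rpl39l, a relative of Rpl39 known from the testis, was at 1.14, 0.954 and 0.913 FPKM in controls and 0.510, 0.0724 and 0.905 FPKM in irradiated libraries, and Rpl3l, the striated muscle relative of Rpl3, lay between 0.0320 and 0.386 FPKM over all 6. The groups did not overlap for Rpl39l, whose lowest control and highest irradiated value lay close together, and overlapped for Rpl3l. Their means were 0.0824% and 0.0392% of the partner's, and neither was tested. Rpl10l and Rps4l had no row among the deposited values, so they could not be analysed.

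The ratio of paralogue to partner was compared between groups for the 5 tested pairs, on log2(FPKM + 1). It was higher in irradiated libraries by 0.16 for Rps27l over Rps27 (two-sided exact permutation p = 0.2, adjusted over the 5 pairs p = 0.5), by 0.08 for Rpl22l1 over Rpl22 (exact p = 0.3, adjusted p = 0.5) and by 0.08 for Rpl7l1 over Rpl7 (exact p = 0.5, adjusted p = 0.6). The ratio differed by -0.05 for Rpl6l over Rpl6 (exact p = 0.6, adjusted p = 0.6) and by -0.25 for Rpl32l over Rpl32 (exact p = 0.3, adjusted p = 0.5). With 3 libraries against 3 the test cannot go below 0.1, so none could have passed. The pairs of Rpl6l and Rpl32l were added after the data were seen.

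**Figure D5:**
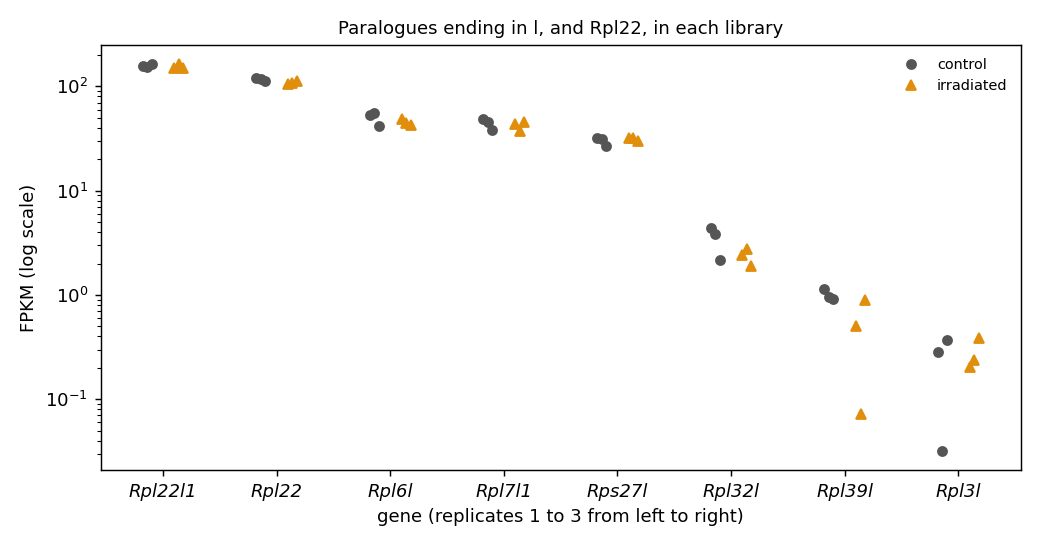
FPKM on a log axis of the 7 paralogues ending in l, and of Rpl22, in each library, with grey circles for controls and orange triangles for irradiated libraries, replicates 1 to 3 from left to right. Rpl22l1 and Rpl22 stand side by side above 100 FPKM, the other paralogues lie lower, and groups overlap for all but Rpl22 and Rpl39l.

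Genes that share the ribosome or the TOP motif with the family were read from lists. Of 4 further ribosome genes outside the naming rule, 1 was lower: Fau, which encodes the small subunit protein eS30 fused to a ubiquitin-like domain, had 1328, 1222 and 1172 FPKM against 1034, 1132 and 1054 FPKM (log2 change -0.21, limma adjusted p = 0.0236). Rack1 at -0.13 and Rpl36al at 0.04 did not pass. Of 18 other genes with TOP mRNAs, mainly translation factors, 8 were lower and 0 higher, beside 10.3% lower and 6.29% higher over all tested genes. Their median change was -0.18, beside -0.02 for all tested genes. On the T cell core scale it was 0.35, beside 0.45 for all tested genes, so it lay below that of all genes on both scales. Without control replicate 3, 10 of the 18 were lower, beside 9.1%, and the difference from the ribosomal proteins was not tested.

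Tpt1, the abundant tumour protein TCTP, had 1507, 1517 and 1333 FPKM in controls and 1166, 1155 and 1155 FPKM in irradiated libraries (log2 change -0.32, limma adjusted p = 0.00135). Eef2, the factor that moves the ribosome along the mRNA, had 923, 924 and 803 FPKM against 744, 749 and 734 FPKM (-0.25, limma adjusted p = 0.0102). In both, control replicate 3 was again the lowest control, but here it stayed above every irradiated library by more than the spread of those libraries. Eif3f at -0.28 and Pabpc1, the poly(A) tail binding protein, at -0.20 were lower too.

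Genes that build ribosomes were read in the same way. Of 74 ribosome biogenesis factors, 2 were lower and 0 higher (5 lower and 5 higher at an unadjusted p under 0.05), with a median of -0.04, beside 10.3% lower and 6.29% higher over all tested genes (17.5% and 12.1% unadjusted). The difference was not tested. The 2 lower genes were Polr1c, a subunit shared by RNA polymerases I and III, at 31.9, 30.8 and 29.4 FPKM against 20.3, 22.1 and 24.2 FPKM, and Nop53, which works in large subunit assembly, at -0.20 on the log2 scale. In Polr1c the groups were well apart and control replicate 3 lay near the other controls.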

How the data were processed

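RNA came from a low-input column kit and went into stranded mRNA libraries, per the labels' protocols. The submitters' processing notes list fastp, HISAT2, StringTie and the builds GRCm38 and mm10, without versions or an annotation release. The deposited tables of the authors hold FPKM, a unit read from the values, since the file headers name none. Read counts and absolute depth are unknown, and relative depth came from the steps of values below 0.1 FPKM.

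The 10666 genes averaging 1 FPKM or more were put on log2(FPKM + 1) and fitted by limma 3.58.1 under R 4.3.3 (eBayes with trend), two-sided, with Benjamini-Hochberg adjustment over all of them and a threshold of 0.05. Changes are irradiated minus control on that scale, which understates low genes. Paralogue ratios had two-sided exact permutation tests. Tables and plots used Python 3.11.15, pandas 2.3.3, numpy 2.4.6 and matplotlib 3.10.9. Coordinates are from GENCODE M21 (GRCm38) and start sequences from RefSeq GRCm38.p6.

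The members and lists were chosen with earlier results of these data known. Named members were all past the threshold, the 5 largest changes in each direction and the 3 highest and 3 lowest levels per subunit, the paralogues with partners, and 12 well-known members. For other lists they were up to 4 genes with the lowest p. Some genes that this rule would name are not reported here by name, although they were tested and are in all counts and medians.

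The alternatives changed the pseudocount (0.1), the filter (none, 5 FPKM, or above 0 throughout), the scaling (median-of-ratios, quantile, T cell core), the library weights, the trend and the block, and dropped each library in turn. Scaling to the members was added after seeing the data. Tested on 5 simulated sets of 10666 genes with 200 changed, the fit found 46.0% of genes changed by 0.5 and 88.2% of those changed by 1, and 3.73% of calls were false. The simulated noise was independent between genes, so it held no shift shared by many genes, as in control replicate 3. Changes below 0.5, such as those of the members with all libraries, were not simulated. These rates therefore do not carry over to the family.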

Additional observations from a re-analysis of the deposited data

How the results depend on the processing

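With 3 libraries per group, unknown depth and shifts near 0.1 on the log2 scale, the counts of lower members depended on the setting, and the cause was not tested except where fewer libraries were fitted. The counts of lower members, of large and of small subunit members were 9, 6 and 3 as reported, 0, 0 and 0 with no filter on low values, with median-of-ratios scaling and without a trend, 24, 14 and 10 with quantile normalization (which also called 3 higher), and 16, 10 and 6 with array weights. Scaling to the T cell core genes moved the median of all genes to 0.45, called 0, 0 and 0 lower and 81 higher, beside 7764 of the 10666 genes tested, and gave subunit medians of 0.407 (large) and 0.452 (small). Scaling to the members gave 4 lower, of which 2 were of the large subunit, 5 higher, and medians of -0.022 and 0.023. Leaving out each library in turn gave 0 to 54 lower members, 0 to 35 of the large and 0 to 19 of the small subunit, and the 54 came without control replicate 3. A pseudocount of 0.1, a minimum of 5 FPKM and genes above 0 in all libraries gave 9, 10 and 7 lower members. Of all genes tested in those fits, 9.985%, 11.3% and 8.83% were lower. Over all tested genes the count lower ranged from 315 on the T cell core scale to 1179 with array weights (11.1%). The share lower was 5.88% with no filter on low values, 8.8% with median-of-ratios scaling and 8.67% without a trend. It was 9.1% with quantile normalization, 5.77% on the member scale and 6.65% to 9.1% when a library was left out.

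Deviations of same-numbered libraries from their group means correlated at 0.011, -0.042 and -0.023 over all tested genes. Over the members they correlated at -0.091, -0.53 and 0.233. These few values cannot show whether replicates were paired by design. With the replicate block 3 members were lower, 2 large and 1 small, beside 948 lower of all genes in place of 1100.

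Changes of named members that turned sign were small except on the T cell core scale. With median-of-ratios scaling Rpl22l1 was at 0.003, Rps19 and Rps29 at 0.012 and Rps9 at 0.014. With quantile normalization Rpl6 was at 0.025, Rps19 at 0.030 and Rps6 at 0.012, and with array weights Rpl41 was at -0.008. On the member scale the values were Rpl10 0.028, Rpl11 0.019, Rpl22l1 0.066, Rpl38 0.018, Rpl39 0.008, Rpl6 0.006, Rpl7l1 0.056, Rplp1 0.030, Rps19 0.075, Rps20 0.002, Rps27 0.009, Rps29 0.075, Rps6 0.006, Rps9 0.077 and Rpsa 0.036. On the T cell core scale they were Rpl10 0.457, Rpl11 0.448, Rpl13a 0.304, Rpl17 0.315, Rpl19 0.308, Rpl22 0.41, Rpl22l1 0.493, Rpl23a 0.333, Rpl3 0.395, Rpl32 0.393, Rpl38 0.447, Rpl39 0.437, Rpl5 0.396, Rpl6 0.435, Rpl6l 0.371, Rpl7 0.403, Rpl7l1 0.476, Rplp0 0.400, Rplp1 0.459 and Rplp2 0.325. For the small subunit they were Rps13 0.349, Rps14 0.331, Rps15a 0.377, Rps19 0.504, Rps20 0.429, Rps27 0.439, Rps29 0.504, Rps3 0.399, Rps4x 0.387, Rps6 0.435, Rps7 0.365, Rps9 0.506 and Rpsa 0.465.

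Leaving out each library in turn, the change ranged from -0.021 to 0.081 for Rpl31, -0.055 to 0.057 for Rpl41, -0.010 to 0.059 for Rps12, -0.083 to 0.017 for Rps19, -0.005 to 0.12 for Rps27l, -0.078 to 0.025 for Rps29, -0.068 to 0.019 for Rps9, -0.14 to 0.042 for Rpl7l1 and -0.013 to 0.32 for Rps27a.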

Other observations

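Among 22 tested regulators of translation and of ribosome production, 2 were lower and 2 higher by limma, beside 10.3% and 6.29% of all tested genes. Counts this near the background are not a result about the list. The median log2 change was -0.04, beside -0.02 for all tested genes. Mxd1, a repressor that competes with Myc for its partner Max, stood at 62.2, 66.9 and 65.6 FPKM in controls and at 82.9, 77.6 and 83.5 FPKM in irradiated libraries, and rose by 0.32 (limma adjusted p = 0.00294). Rps6kb2, an S6 kinase, rose by 0.54 (limma adjusted p = 0.0337), with control replicate 2 at 10.4 FPKM below the other controls at 16.6 and 16.7 FPKM and irradiated libraries between 20.1 and 23.5 FPKM. The inhibitors of initiation Eif4ebp2 and Pdcd4 fell by 0.31 and 0.31 (limma adjusted p = 0.0118 and 0.0378), and for both the groups did not overlap. On these 4 genes control replicate 3 lay with the other controls or, for Rps6kb2, with the higher of them.

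The 84 ribosomal protein genes lay on 19 chromosomes, with 14 of them on chromosome 7, the most on any.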
